A study of Mus musculus with 4 samples.

Results

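The 10 genes described here are the 4 Notch receptors Notch1, Notch2, Notch3 and Notch4, the Notch ligands Dll4 and Jag1, the Notch target genes Hey1 and Hey2, and the arterial endothelial genes Gja5 and Sox17. They were taken by symbol from the 25906 genes counted in single nuclei of mouse heart ventricles, and each symbol stood for 1 gene. Notch signalling passes between touching cells: a ligand on one cell triggers cleavage of the receptor on its neighbour, and the freed intracellular part of the receptor joins the DNA-binding protein RBPJ to switch on repressor genes of the Hes and Hey families. In blood vessels this pathway sets and keeps the arterial fate of endothelial cells, with the transcription factor Sox17 acting in the same fate and the gap junction protein connexin 40, made from Gja5, joining arterial endothelial cells to each other. Notch3 is the receptor of the mural cells (pericytes and smooth muscle cells) that wrap the endothelium.

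Wild-type C57BL/6J mice of both sexes, 8 weeks old at the start, either ran on wheels at will for 16 weeks or stayed sedentary, with 6 mice in each arm. The sedentary and the running libraries each hold ventricles of 2 such mice pooled at the end of that time. The sedentary infarct and the running infarct libraries each hold pooled ventricles of the other 4 mice of the arm, taken 2 weeks after surgery that caused a myocardial infarction. Every group is therefore 1 library of pooled hearts, with no replicate. No test between groups was possible, and every 95% interval below is an interval for counting error alone. It holds nothing of the differences between mice, pools or days. The intervals are exact, except that those of a ratio divided by another ratio are approximate. The infarct groups also differ from the others in that their mice had surgery and were killed later, which cannot be told apart from the infarct, and no library of mice with sham surgery was analysed here.

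Values are in the order sedentary, running, sedentary infarct, running infarct wherever 4 are given. The libraries held 5388, 6253, 3243 and 4922 barcodes, and 5114, 5833, 3124 and 4711 nuclei were kept. Between 44.0 and 91.7% of a library's barcodes had over 5% mitochondrial counts, the highest share being that of the running library. At most 12 barcodes were shared by any pair of libraries. Clusters of nuclei were named from marker genes, with all 10 genes and the lists of related genes kept out of both the clustering and the markers, so that none of them helped to place a nucleus. Levels are counts of unique molecules (UMIs) summed over the nuclei of a class in a library, per 1000000 UMIs of that class without mitochondrial genes (CPM). The 3' counting method records 1 end of each transcript, so levels are compared between classes and libraries for the same gene only. Of the nuclei kept, 20.2, 23.1, 15.7 and 13.9% were in clusters that could not be named, and these held 38.8, 38.9, 46.4 and 49.6% of all UMIs.

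Across the 8 classes with at least 50 nuclei in every library, the receptors divided between cell types. Notch1, the main endothelial receptor of the pathway, was highest in the lining cells of the heart and vessels. It stood at 256, 241, 239 and 205 CPM in endocardial-like nuclei, 193, 171, 261 and 186 CPM in lymphatic endothelial-like nuclei, and 213, 148, 187 and 160 CPM in vascular endothelial-like nuclei. These 3 classes overlapped over the 4 libraries, while the vascular class was above pericyte-like nuclei (70.8 to 134 CPM) in all of them. In cardiomyocyte-like nuclei its mean was 10.2 CPM (SD 3.33 over the 4 libraries).

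Notch4, a receptor largely restricted to endothelium, stood at 112, 132, 117 and 120 CPM in vascular endothelial-like nuclei. The next class, endocardial-like, had 29.5 to 46.4 CPM, so that vascular nuclei were higher in every library. Notch2, which is broadly expressed and is known in monocyte and B cell development, was instead highest in macrophage-like nuclei at 342, 347, 357 and 326 CPM. Fibroblast-like (141 to 178 CPM), mesothelial-like (125 to 181 CPM) and lymphatic endothelial-like nuclei (131 to 152 CPM) followed and overlapped each other. Vascular endothelial-like nuclei came last of the 8 classes for Notch2, with a mean of 35.6 CPM (SD 5.20 over the 4 libraries).

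Notch3 was concentrated in mural nuclei. Pericyte-like nuclei held 1487, 1380, 2099 and 1753 CPM of it, against 43.5 to 106 CPM in the next class, fibroblast-like nuclei. Smooth muscle-like nuclei, too few for the ranking at 28 to 44 a library, stood at 1185, 1169, 1281 and 1414 CPM. Cardiomyocyte-like nuclei had 70.0, 68.0, 51.0 and 48.5 CPM of Notch3. The counts of Notch3 per 100 UMIs of the pericyte markers other than Pdgfrb were 14.6, 13.8, 21.0 and 21.8 in pericyte-like nuclei and 15.0, 15.7, 16.9 and 15.7 in cardiomyocyte-like nuclei. The classes were thus alike in this ratio at baseline, and the part of free RNA from pericytes in the cardiomyocyte-like values was not tested.

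Among the ligands, Dll4, which endothelial cells at vessel tips and in arteries present to their neighbours, had 54.6, 67.6, 70.2 and 55.4 CPM in vascular endothelial-like nuclei. Every other class was lower in all libraries, the nearest being lymphatic endothelial-like nuclei at 17.6 to 32.9 CPM. Jag1, the ligand that both endothelial and mural cells carry, stood at 189, 208, 192 and 138 CPM in pericyte-like nuclei and at 198, 178, 152 and 94.2 CPM in vascular endothelial-like nuclei, and these ranges overlapped. Fibroblast-like nuclei had 66.7 to 90.6 CPM of Jag1, and by number they held 32.5, 36.4, 46.7 and 42.3% of its UMIs in named nuclei.

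The target genes were sparse. Hey1, a Notch-induced repressor, reached 15.3, 16.9, 17.0 and 14.2 CPM in vascular endothelial-like nuclei on 30, 38, 16 and 23 UMIs, and pericyte-like nuclei at 3.63 to 20.7 CPM overlapped that range. Hey2, the related repressor that is also known in ventricular muscle, led in no single class: pericyte-like (6.90 to 59.4 CPM), endocardial-like (16.8 to 61.2 CPM) and vascular endothelial-like nuclei (6.16 to 24.9 CPM) overlapped. Smooth muscle-like nuclei, too few for the ranking, had a higher level of Hey2 than these classes in every library. Their baseline values were 220 and 247 CPM on 31 and 42 UMIs, and the infarct libraries gave 14 and 15 UMIs. In cardiomyocyte-like nuclei Hey2 stood at 7.30, 10.9, 10.2 and 11.7 CPM.

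The arterial genes were concentrated in vessels. Gja5 had 144, 126, 48.9 and 32.0 CPM in vascular endothelial-like nuclei and no more than 14.8 CPM in any other of the 8 classes and any library. Sox17 had 129, 114, 117 and 64.1 CPM in vascular endothelial-like nuclei and at most 13.8 CPM elsewhere. In each library both genes were thus higher in vascular nuclei than in any other class.

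**Figure D1:**
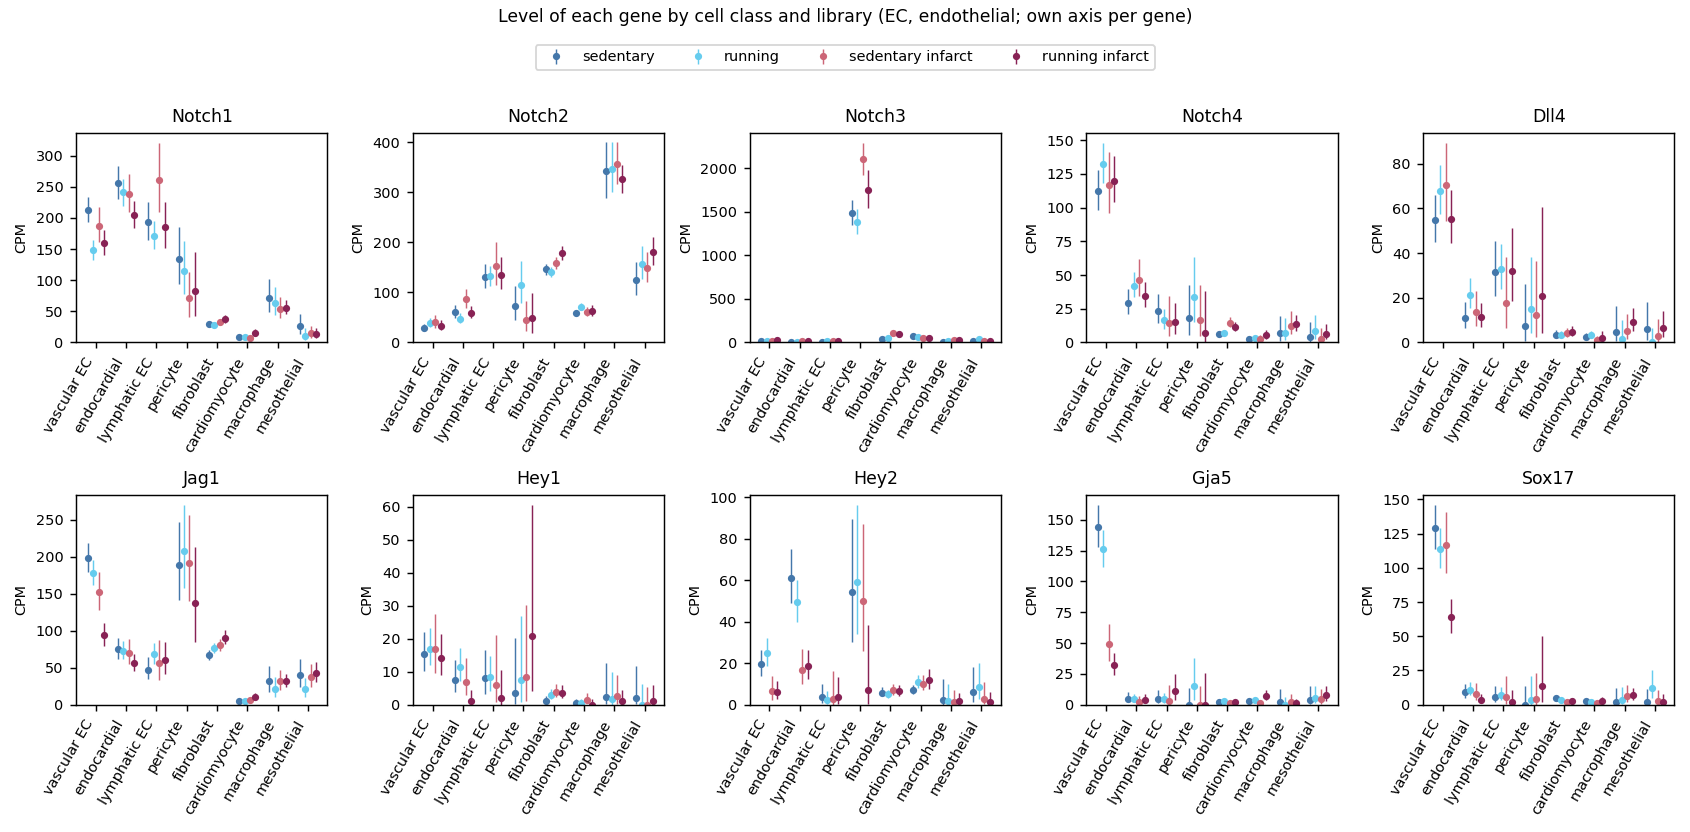
Level in CPM (y axis, own scale for each gene) of each of the 10 genes in the 8 classes with at least 50 nuclei in every library, with 1 point per library and exact 95% counting intervals as bars. Notch3 stands out in pericyte-like nuclei (1380 to 2099 CPM), Notch2 in macrophage-like nuclei (326 to 357 CPM), and Gja5 and Sox17 in vascular endothelial-like nuclei, where the infarct libraries are lower for Gja5.

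Vascular endothelial-like nuclei numbered 823, 939, 382 and 826 and consisted of capillary endothelial-like clusters and 1 arterial endothelial-like cluster. No venous cluster was found. Of the vascular nuclei, 199, 228, 32 and 77 were positive for Y-linked genes and 485, 534, 320 and 662 negative. The positive part was thus smaller in both infarct libraries. The arterial cluster was named from Sema3g, Stmn2, Fbln5, Mecom, Vegfc, Edn1, Gkn3, Alpl and 3 general endothelial genes. All 11 of these markers had a UMI in at least 10% of its nuclei in every library but running infarct, where 10 did, and none was at 0. It held 197, 212, 30 and 41 nuclei.

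Although none of the 10 genes had been used to find it, most of the endothelial members were concentrated in the arterial cluster. Gja5 stood at 468, 405, 453 and 389 CPM in arterial endothelial-like nuclei and at 3.66, 4.47, 8.20 and 5.30 CPM in capillary endothelial-like nuclei. Of all Gja5 UMIs in named nuclei, 84.2, 77.6, 51.3 and 43.6% were in the arterial cluster. Hey2 showed the same division on fewer molecules, with 62.5, 71.6, 58.1 and 70.7 CPM in arterial nuclei against 0.731 to 4.47 CPM in capillary nuclei, the latter on 1 to 7 UMIs a library.

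Sox17, Jag1 and Dll4 were shared more evenly. Sox17 had 344, 304, 557 and 336 CPM in arterial nuclei and 35.8, 30.7, 72.6 and 43.7 CPM in capillary nuclei. Jag1 had 493, 432, 859 and 610 CPM against 70.2, 66.5, 80.8 and 55.6 CPM, and Dll4 had 111, 129, 163 and 133 CPM against 30.0, 40.9, 60.9 and 49.7 CPM. For all 3, every library was higher in arterial than in capillary nuclei.

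The receptors differed less between the vessel types. Notch1 had 311, 225, 267 and 309 CPM in arterial and 170, 115, 179 and 149 CPM in capillary nuclei, and Notch4 had 167, 196, 186 and 230 CPM against 88.5, 105, 110 and 112 CPM. Notch3, the mural receptor, gave 10, 7, 0 and 0 UMIs in arterial nuclei. An arterial endothelial-like nucleus had a UMI of 3.28, 3.35, 3.93 and 2.85 of the 10 genes on average, and a capillary one of 0.775, 0.761, 1.06 and 0.731. Thinned to 1000 UMIs a nucleus, which 194, 210, 30 and 40 arterial and 507, 572, 271 and 554 capillary nuclei reached, the means were 1.51, 1.40, 2.03 and 1.68 against 0.387, 0.367, 0.494 and 0.401.

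Within arterial nuclei the overlap of Gja5 with Sox17 and Jag1 went in no single direction over the libraries. The shares have no interval, and those of the infarct libraries rest on few nuclei. In the baseline sedentary library 52.7% of arterial nuclei with a Gja5 UMI also had one of Sox17, against 65.5% of those without Gja5, and in the running library the shares were 55.5 and 57.0%. For Jag1 the shares were 70.0 and 57.5% in the sedentary library and 59.7 and 60.2% in the running library. In the sedentary infarct library, where 21 of 30 arterial nuclei had Gja5, the shares were 81.0 and 44.4% for Sox17 and 90.5 and 55.6% for Jag1. In the running infarct library Sox17 was detected in 6 and Jag1 in 9 of the 15 arterial nuclei with Gja5, and in 38.5 and 76.9% of those without. At 1 to a few UMIs of each gene per nucleus, a nucleus without a UMI is not a nucleus without the transcript.

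**Figure D2:**
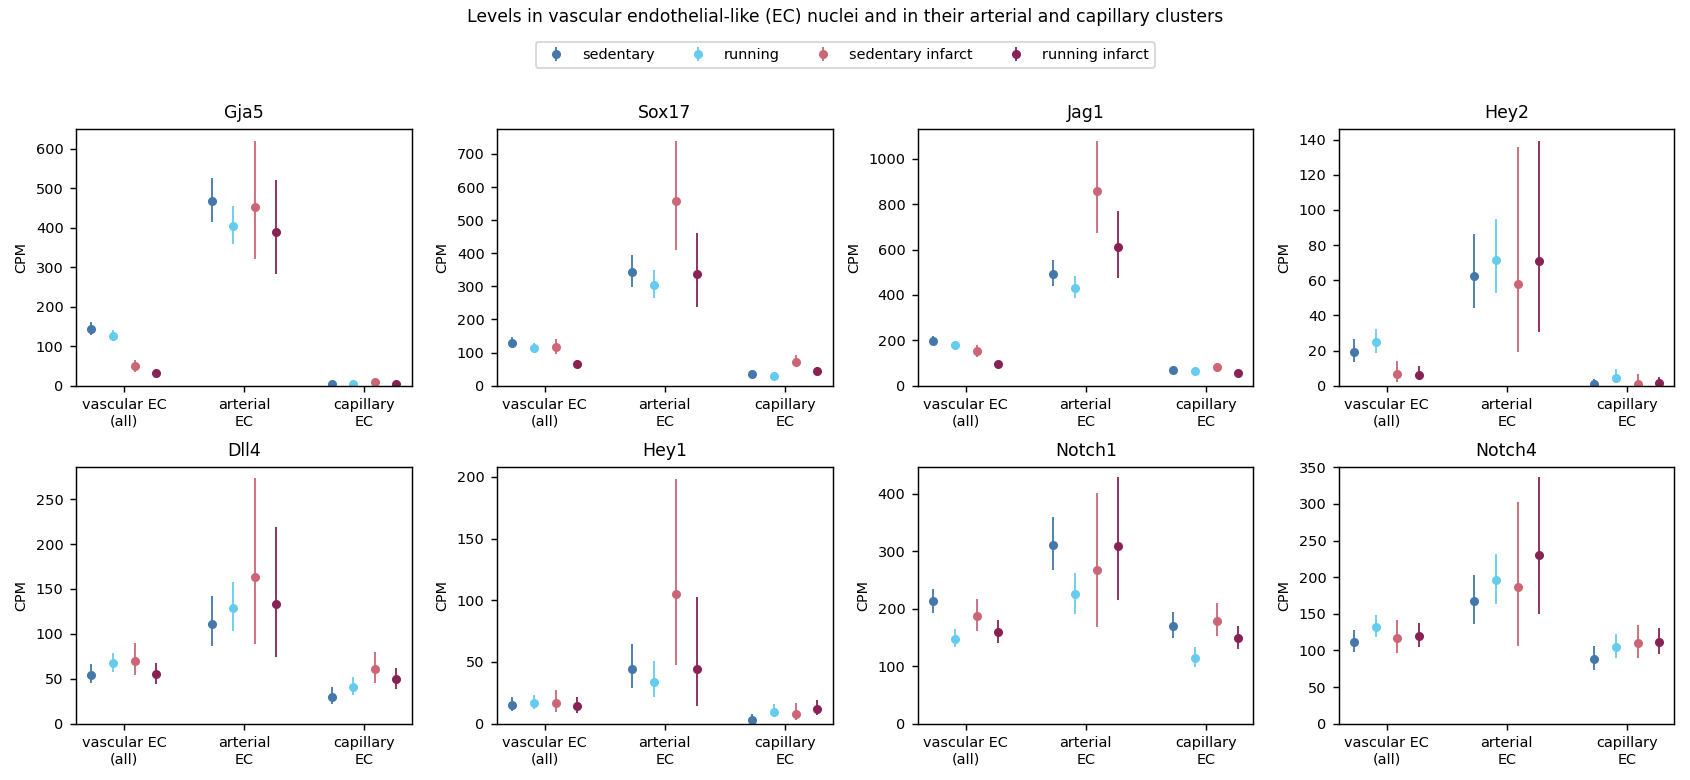
Level in CPM (y axis, own scale for each gene) of 8 of the genes in all vascular endothelial-like nuclei and in their arterial and capillary clusters, with 1 point per library and exact 95% counting intervals as bars. Gja5 is lower in the infarct libraries over all vascular nuclei (48.9 and 32.0 against 144 and 126 CPM), while within the arterial cluster the libraries lie between 389 and 468 CPM.

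The first infarct comparison asked how the vessels of sedentary hearts differed 2 weeks after infarction. Over all vascular endothelial-like nuclei, Gja5 stood at 144 CPM in the sedentary and 48.9 CPM in the sedentary infarct library, on 282 and 46 UMIs. That is 2.94-fold lower (95% counting interval 2.15 to 4.11) and 28th lowest of the 5777 genes with at least 100 UMIs over both libraries, the minimum for a comparison. Of the 6 members with that many, Gja5 alone differed by at least 1.5-fold, where 6.94% of the 5777 genes were lower and 12.4% differed in either direction. Jag1 had 198 and 152 CPM, a ratio of 0.768, and Sox17 had 129 and 117 CPM. The median log2 ratio of the 6 members was −0.16, against 0.00 for all genes compared. Hey2, under the 100 UMIs, gave 38 and 6 UMIs, or 19.4 and 6.38 CPM.

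The same comparison in runners gave more members past 1.5-fold. Gja5 had 126 CPM in the running and 32.0 CPM in the running infarct library, 3.94-fold lower (2.92 to 5.41) and 11th lowest of 6876 genes. Jag1 had 178 and 94.2 CPM, 1.89-fold lower (1.56 to 2.29), and Sox17 had 114 and 64.1 CPM, 1.78-fold lower (1.41 to 2.25). These 3 of 7 members compared were lower and 0 higher, where 8.52% of all genes were lower and 13.7% differed in either direction. The median log2 ratio of the 7 members was −0.29, against −0.06 for all genes. Notch1, Notch4 and Dll4 were within 1.5-fold in both infarct comparisons. Hey2, again under 100 UMIs, had 56 and 10 UMIs, or 24.9 and 6.16 CPM.

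The composition of the class moved with these ratios. Arterial endothelial-like nuclei made up 23.9% (95% Clopper-Pearson interval 21.1 to 27.0) of vascular nuclei in the sedentary library and 22.6% (19.9 to 25.4) in the running library. In the sedentary infarct library they were 7.85% (5.36 to 11.0) and in the running infarct library 4.96% (3.59 to 6.67). Both infarct libraries lay below both baseline libraries, with no overlap of intervals between the pairs. Without a low-depth capillary cluster that held 307, 443, 248 and 671 nuclei, the shares were 38.2, 42.7, 22.4 and 26.5%. The Gja5 ratios were then 0.457 in sedentary and 0.526 in running hearts, and those of Jag1 0.981 and 0.926. In runners 3 members still passed 1.5-fold, but Sox17 (0.677) and Jag1 no longer did, while Notch4 (0.665) and Dll4 (0.587) were lower beside Gja5.

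When the vascular clusters were given the same weights in both libraries, the Gja5 ratio was close to even, at 0.984 in sedentary and 0.961 in running hearts. Hey2 went to 0.933 and 0.830 in the same way. Jag1 turned to 1.59 in sedentary and 1.25 in running hearts, and Sox17 to 1.68 and 1.10, above even in both. Within the arterial cluster itself, Gja5 had 468 and 453 CPM in the sedentary pair (ratio 0.969, 0.674 to 1.36) and 405 and 389 CPM in the running pair (0.961, 0.683 to 1.32). These intervals allow a level nearly 1.5-fold lower.

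**Figure D3:**
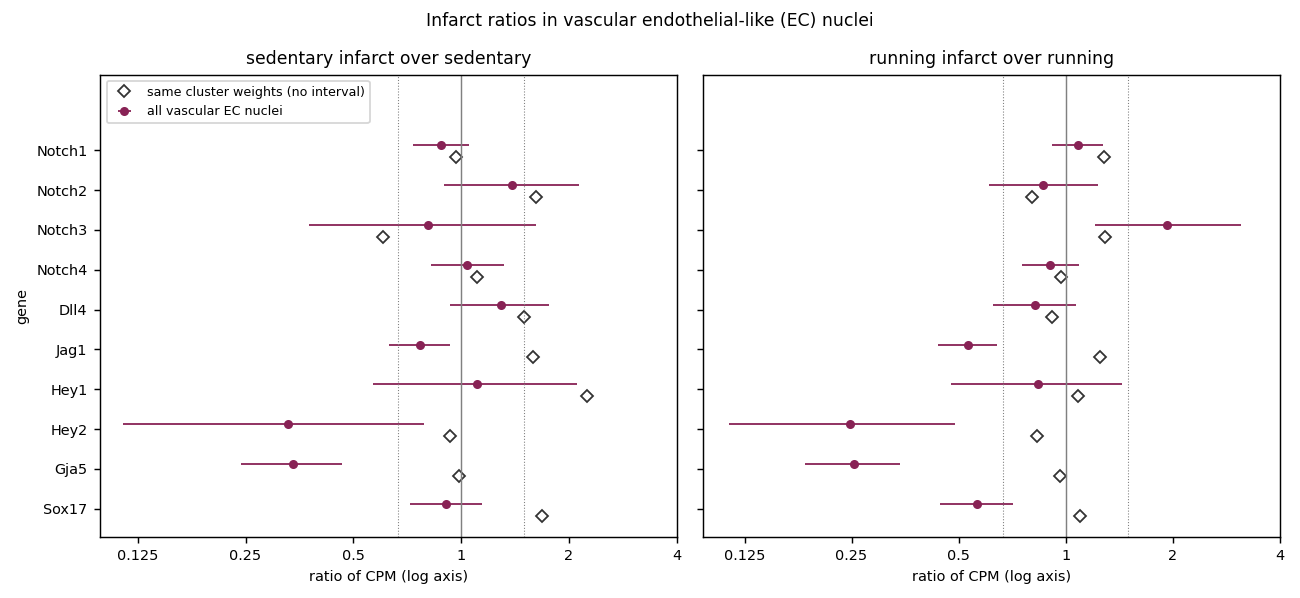
Ratio of CPM, infarct over baseline (log x axis), of the 10 genes in all vascular endothelial-like nuclei with exact 95% counting intervals (filled points) and with the same cluster weights in both libraries (open diamonds), dotted lines marking 1.5-fold. Gja5 goes from 0.340 and 0.254 to 0.984 and 0.961 with the same weights.

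Jag1 and Sox17 were higher within arterial nuclei of the sedentary infarct library. Jag1 had 493 CPM in the sedentary and 859 CPM in the sedentary infarct library, 1.74-fold higher (1.33 to 2.26), and Sox17 344 and 557 CPM, 1.62-fold higher (1.16 to 2.23). They were 2 of 5 members compared there, where 6.96% of the 1609 genes compared were higher and 22.5% differed in either direction, and they rest on 30 infarct nuclei with 74 and 48 UMIs. In runners the arterial values were 432 and 610 CPM for Jag1 (ratio 1.41, 1.07 to 1.84) and 304 and 336 CPM for Sox17, and 0 of 6 members compared passed 1.5-fold, where 21.8% of genes did.

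In capillary endothelial-like nuclei Sox17 was also higher after infarction in sedentary hearts. It had 35.8 and 72.6 CPM, 2.03-fold higher (1.37 to 3.01), on 49 and 62 UMIs, where 5.86% of the genes compared were higher. Dll4, on 93 UMIs over both libraries and so below the minimum, had 30.0 and 60.9 CPM, a ratio of 2.03 (1.32 to 3.14). In the low-depth capillary cluster Dll4 had 54.5 and 93.7 CPM, and in the other capillary cluster 16.1 and 16.5 CPM. Sox17 was higher in both, at 48.5 and 81.5 CPM and at 28.7 and 60.6 CPM. The low-depth cluster held 307 of 626 capillary nuclei in the sedentary and 248 of 352 in the sedentary infarct library. The part of this make-up in the Dll4 ratio was not tested. In runners the capillary values were 30.7 and 43.7 CPM for Sox17 and 40.9 and 49.7 CPM for Dll4. Within the clusters, Dll4 in runners was instead lower, at 68.9 and 61.8 CPM in the low-depth cluster. It had 17.6 and 8.69 CPM in the other, the last on 3 UMIs.

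The share of nuclei with a Gja5 UMI was likewise lower in the infarct libraries. It was 14.0, 13.4, 6.81 and 2.66% of vascular endothelial-like nuclei, and 2.45, 2.76, 1.35 and 2.94% of cardiomyocyte-like nuclei, which serve as the background of free RNA although Purkinje fibre myocytes make connexin 40. Median depth was 2446.0, 2583.0, 2428.5 and 1620.0 UMIs in vascular and 8434.0, 8479.0, 9517.5 and 3173.0 UMIs in cardiomyocyte-like nuclei. The running infarct share did not exceed this background before thinning. With every nucleus thinned to 1000 UMIs, the shares were 7.99, 7.03, 3.65 and 2.02% of 701, 782, 301 and 594 vascular nuclei, and 0.132, 0.474, 0.288 and 0.639% of 755, 633, 347 and 313 cardiomyocyte-like nuclei. Of the vascular nuclei with Gja5, 95.7, 94.4, 80.8 and 68.2% were in the arterial cluster.

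Markers of other cell types in the vascular class were present in all libraries. The summed level of 11 cardiomyocyte markers was 5604, 5127, 3848 and 3823 CPM, that of 11 fibroblast markers 1017, 1224, 1511 and 1652 CPM, and that of the pericyte markers 181, 137, 203 and 231 CPM. Smooth muscle markers summed to 208, 215, 204 and 215 CPM. A marker was at 0 in 3 libraries for the smooth muscle list and in 1 library for the pericyte list. The part of these markers in the ratios was not tested, nor was that of depth, which was lowest in the running infarct library.

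**Figure D4:**
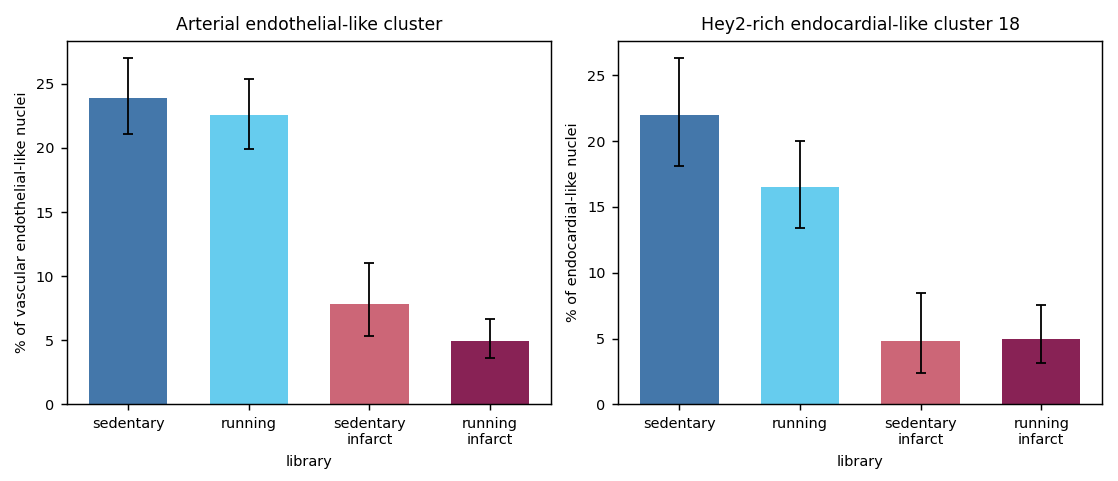
Share (y axis, %) of vascular endothelial-like nuclei in the arterial cluster (left) and of endocardial-like nuclei in the cluster rich in Hey2 (right), 1 bar per library with 95% Clopper-Pearson intervals. Arterial shares are 23.9 and 22.6% at baseline and 7.85 and 4.96% after infarction; the other cluster goes from 22.0 and 16.5% to 4.80 and 5.00%.

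Summed over all nuclei of a library with no naming of cells, Gja5 stood at 18.7, 17.5, 8.69 and 9.88 CPM. That is 2.16-fold lower (1.83 to 2.54) after infarction in sedentary and 1.77-fold lower (1.53 to 2.06) in running hearts, less than within the vascular class. Hey2 over all nuclei had ratios of 0.699 (0.586 to 0.830) and 0.642 (0.546 to 0.752). Jag1 was close to even at 1.05 (0.983 to 1.13) and 0.996 (0.935 to 1.06), Sox17 was at 0.822 (0.718 to 0.941) and 0.857 (0.749 to 0.979), and Notch2 and Notch3 were higher at 1.31 to 1.36. In such a sum, fewer cells of a type and less RNA per cell cannot be told apart. Unnamed clusters held 38.6, 33.4, 63.3 and 62.2% of the Gja5 UMIs, so in the infarct libraries most Gja5 molecules were outside the named classes.

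Before infarction, most of the genes had similar levels in the running and the sedentary library. None of the 7 members compared in vascular endothelial-like nuclei differed by 1.5-fold, where 5.34% of 7224 genes did, and their median log2 ratio was −0.16 against 0.02 for all genes. Notch1 came nearest, at 213 CPM in the sedentary and 148 CPM in the running library, 1.43-fold lower (1.24 to 1.66). It was lower in runners in capillary nuclei (170 and 115 CPM, 1.48-fold, 1.21 to 1.81) and in arterial nuclei (311 and 225 CPM, 1.38-fold, 1.11 to 1.72). In endocardial-like nuclei Notch1 had 256 and 241 CPM, and over all nuclei its ratio was 0.953 (0.899 to 1.01). Gja5 had 144 and 126 CPM, Sox17 129 and 114 CPM, and Jag1 198 and 178 CPM. Over all nuclei Dll4 was higher in runners, with 12.2 and 17.1 CPM (ratio 1.40, 1.22 to 1.61), as was Notch4 with 22.4 and 27.9 CPM (1.24, 1.12 to 1.38).

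The 2 infarct libraries were compared with each other for the effect of earlier running. In vascular endothelial-like nuclei Sox17 had 117 CPM in the sedentary infarct and 64.1 CPM in the running infarct library, 1.83-fold lower (1.38 to 2.41) and 21st lowest of 5247 genes. Jag1 had 152 and 94.2 CPM, 1.61-fold lower (1.28 to 2.04). These were 2 of 5 members compared, where 3.09% of genes were lower and 5.07% differed in either direction. Gja5 had 48.9 and 32.0 CPM, a ratio of 0.654 (0.432 to 0.995) on fewer than 100 UMIs.

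With the same cluster weights Sox17 kept a ratio of 0.571 and Jag1 went to 0.733, within 1.5-fold. In capillary nuclei alone Sox17 had 72.6 and 43.7 CPM, 1.66-fold lower (1.16 to 2.39), where 3.20% of genes were lower. Over all vascular nuclei, the infarct ratio in runners was also divided by that in sedentary hearts. This gave 0.621 (0.451 to 0.855) for Sox17, 0.690 (0.528 to 0.901) for Jag1 and 0.638 (0.427 to 0.954) for Dll4. Notch3 went the other way at 2.39 (1.07 to 5.34), on 31, 33, 12 and 46 UMIs. For Gja5 it was 0.746 (0.485 to 1.15), so that a difference between the arms was not detectable at this depth. Within capillary nuclei the values were 0.703 (0.415 to 1.19), 0.727 (0.477 to 1.11) and 0.598 (0.353 to 1.01) for Sox17, Jag1 and Dll4. Within arterial nuclei they were 0.683 (0.428 to 1.09), 0.809 (0.561 to 1.17) and 0.707 (0.319 to 1.57). All intervals within these vessel types included even. The running infarct library is shared by this comparison and by that of infarcted with baseline runners, and it had the lowest vascular depth.

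Hey2 in endocardial-like nuclei, the cells lining the heart chambers, was also lower in both infarct libraries. Its counts were 89, 95, 17 and 31 UMIs, or 61.2, 49.4, 16.8 and 18.5 CPM. The difference was 3.64-fold (2.15 to 6.53) in sedentary and 2.67-fold (1.76 to 4.14) in running hearts. Of all genes compared in this class 7.59% were at least 1.5-fold lower in the sedentary and 11.9% in the running comparison, and Hey2 was 7th lowest of 5232 and 72nd lowest of 6508. Both infarct libraries lay below both baseline libraries. Endocardial Hey1 was near the limit of counting, with 11, 22, 7 and 2 UMIs.

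At baseline the endocardial Hey2 molecules lay mostly in 1 small cluster, which had 76 of 89 and 82 of 95 UMIs, against 5 of 17 and 13 of 31 in the infarct libraries. That cluster was led by Hecw1, Calcr, Dkk2, Kcnc2 and Wnt9b, and held 91, 86, 11 and 21 nuclei, or 22.0, 16.5, 4.80 and 5.00% of the class. Its Hey2 level was 189, 221, 98.7 and 150 CPM. The larger endocardial cluster, led by Nrg1, Smoc1 and Npr3, had 12.3, 8.36, 12.5 and 11.3 CPM. With the same cluster weights the Hey2 ratios were 0.632 and 0.819, nearer to even. The sedentary ratio was still 1.58-fold lower, past the 1.5-fold limit, but these ratios have no interval. In the sedentary infarct library the level of the small cluster rests on 11 nuclei with 5 Hey2 UMIs. This look at the clusters was chosen after the levels were seen.

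Hey2 is the 1 member whose promoter held the DNA letters bound by RBPJ, the factor through which Notch acts. RefSeq promoter windows (GRCm38.p6), 250 bases before to 50 after the start, were found for 8 of the 10 genes, all but Hey1 and Sox17. They were searched on both strands for the core TGGGAA, which reads TTCCCA on the opposite strand. In Hey2 it occurs with its first base 3 bases before the start and again, on the opposite strand, 207 bases before it, both times within the longer form CGTGGGAA. The core was in 25.6% of 32851 such windows, at 2 or more places in 3.79%, and the longer form in 0.734%. The 7 other windows had no match, which says only that these letters are not in that stretch. The E-box letters CACGTG, a form that Hey proteins can bind, were in 7.15% of windows and in none of the 8. The sequence of Hey2 is shown from 250 bases before to 20 after the start, with the core in capitals. Beside it are Gja5 and Jag1, which had a window and passed 1.5-fold lower over all vascular nuclei in infarcted runners. Jag1 did so in runners only. With the same cluster weights it was above even, at 1.59 in sedentary and 1.25 in running hearts. The stretches are Hey2 at chr10:30842764-30843033 (minus strand), Gja5 at chr3:97032152-97032421 (plus strand) and Jag1 at chr2:137116501-137116770 (minus strand).
Hey2: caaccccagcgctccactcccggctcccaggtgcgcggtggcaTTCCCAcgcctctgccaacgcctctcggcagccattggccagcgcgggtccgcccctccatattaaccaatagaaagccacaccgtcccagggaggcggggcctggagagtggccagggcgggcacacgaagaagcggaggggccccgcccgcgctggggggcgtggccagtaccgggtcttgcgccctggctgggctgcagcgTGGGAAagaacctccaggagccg
Gja5: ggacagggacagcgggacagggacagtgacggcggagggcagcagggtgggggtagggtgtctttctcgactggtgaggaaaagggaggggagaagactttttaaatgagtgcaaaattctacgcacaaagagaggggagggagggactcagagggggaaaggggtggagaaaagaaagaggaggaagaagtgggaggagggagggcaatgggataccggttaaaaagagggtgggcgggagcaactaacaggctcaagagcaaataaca
Jag1: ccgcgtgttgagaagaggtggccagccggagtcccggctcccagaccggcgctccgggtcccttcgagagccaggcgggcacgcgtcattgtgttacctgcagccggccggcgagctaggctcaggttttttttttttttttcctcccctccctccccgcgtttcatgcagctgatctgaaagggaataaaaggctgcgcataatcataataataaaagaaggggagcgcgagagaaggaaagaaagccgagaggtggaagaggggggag

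In pericyte-like nuclei Notch3 was higher after infarction by less than 1.5-fold, and in smooth muscle-like nuclei the intervals reached even. Pericyte-like nuclei had 1487 and 2099 CPM in the sedentary pair (ratio 1.41, 1.24 to 1.61) and 1380 and 1753 CPM in the running pair (1.27, 1.08 to 1.49). In smooth muscle-like nuclei the values were 1185 and 1281 CPM (1.08, 0.871 to 1.34), and 1169 and 1414 CPM (1.21, 0.999 to 1.47). In the pericyte-like class the median depth was 2850.0, 2842.0, 2695.0 and 1001.5 UMIs, smooth muscle markers summed to 751, 660, 850 and 1015 CPM and fibroblast markers to 2956, 3191, 3352 and 3893 CPM, and their part in the Notch3 values was not tested. Heyl, a Notch3 target of mural cells from the list of related genes, had 141 and 329 CPM in pericyte-like nuclei of the sedentary pair, 2.33-fold higher (1.57 to 3.51), where 5.12% of the 1093 genes compared were higher. Smooth muscle Hey2 went the other way on few molecules, with 220 and 247 CPM at baseline and 99.6 and 86.6 CPM after infarction on 14 and 15 UMIs. The smooth muscle class changed in make-up too: 1 of its 2 clusters held 89.5, 95.5, 57.1 and 48.8% of its nuclei. Within that cluster Hey2 was at 235, 253, 124 and 103 CPM and Notch3 at 1168, 1130, 835 and 1077 CPM. With the same cluster weights the smooth muscle Notch3 ratios were 0.922 and 0.956, below even and without an interval. In these the baseline level of the other cluster rests on 4 sedentary and 2 running nuclei, with 18 and 16 Notch3 UMIs.

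In fibroblast-like nuclei Notch3 was higher in both infarct libraries. It had 43.5 and 106 CPM in the sedentary pair, 2.43-fold higher (2.07 to 2.86), and 49.6 and 93.1 CPM in the running pair, 1.88-fold higher (1.61 to 2.20). Of all genes compared in the class 6.46 and 7.27% were at least 1.5-fold higher in these comparisons. A fibroblast cluster led by Postn, Col12a1, Cthrc1 and Cilp, genes of activated matrix-producing fibroblasts, made up 2.14, 2.95, 43.1 and 43.2% of the class. Notch3 in that cluster gave 0, 4, 337 and 251 UMIs, or 0, 19.7, 136 and 110 CPM.

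The 2 clusters that made up most fibroblast-like nuclei at baseline were higher in the infarct libraries too, with 15.6, 22.6, 36.4 and 30.0 CPM of Notch3 in one and 85.2, 95.2, 134 and 140 CPM in the other. The 2 smallest at baseline had 0, 1, 2 and 28 UMIs (0, 33.5, 22.5 and 112 CPM) and 3, 1, 1 and 8 UMIs (39.1, 6.87, 7.72 and 66.5 CPM), so the latter was lower in the sedentary pair, on 3 UMIs and 1 UMI. With the same cluster weights the ratios were 2.82 and 2.02. In these the baseline level of the Postn-led cluster rests on 31 sedentary and 46 running nuclei. Pericyte markers summed to 248, 245, 385 and 365 CPM in fibroblast-like nuclei and smooth muscle markers to 182, 170, 235 and 226 CPM, so mural markers were higher in the infarct libraries too, and their part in the Notch3 difference was not tested. Notch3 per 100 UMIs of the pericyte markers other than Pdgfrb was 38.6, 45.8, 96.3 and 77.7 in fibroblast-like nuclei, above the 13.8 to 21.8 of pericyte-like nuclei in every library. In smooth muscle-like nuclei the same count was 101, 90.0, 115 and 77.5. Fibroblast Notch4 was low at 6.05, 6.89, 14.7 and 11.2 CPM.

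**Figure D5:**
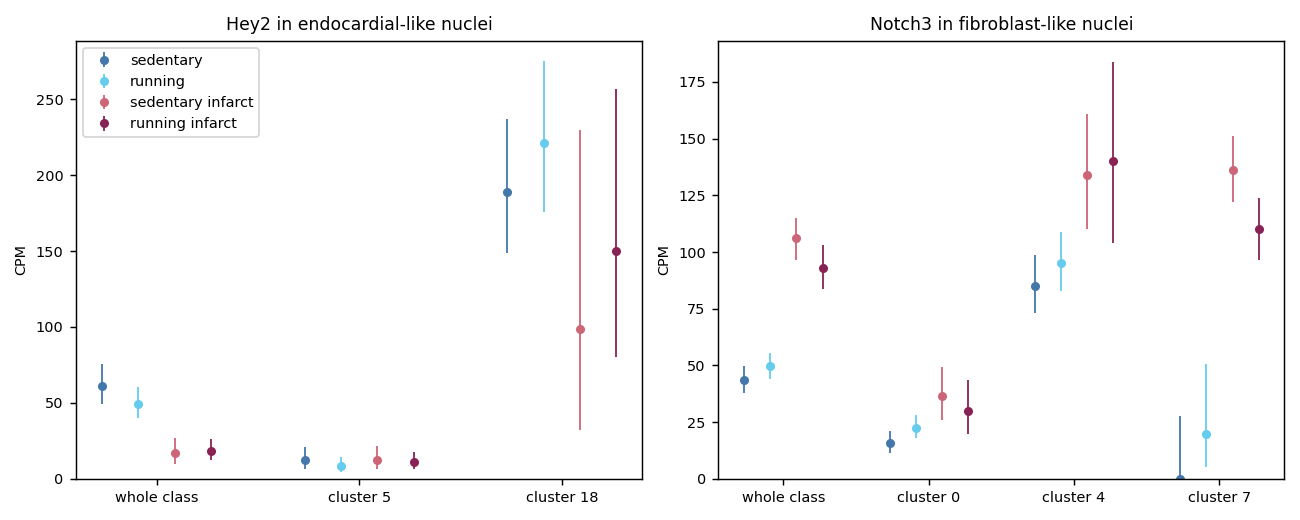
Level in CPM (y axes) of Hey2 in endocardial-like nuclei (left) and of Notch3 in fibroblast-like nuclei (right), for the whole class and for its clusters, with 1 point per library and exact 95% counting intervals. Whole-class Hey2 goes from 61.2 and 49.4 to 16.8 and 18.5 CPM and Notch3 from 43.5 and 49.6 to 106 and 93.1 CPM; the Postn-led cluster is cluster 7.

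In the wider Notch pathway, few genes passed 1.5-fold in vascular endothelial-like nuclei. Of 45 listed genes (other ligands, receptor processing, trafficking, nuclear effectors and other targets), 26 were compared after infarction in sedentary hearts, with 3 higher and 0 lower, and 28 in runners, with 3 higher and 2 lower. Of all genes compared 5.42 and 5.16% were higher and 6.94 and 8.52% lower. The listed genes were thus above the share of all genes higher, on only 3 genes in each comparison, and below the share lower. The median log2 ratios were 0.06 and 0.04, against 0.00 and −0.06 for all genes. Maml3, a coactivator that joins the Notch and RBPJ complex, was higher in both, with 163 and 380 CPM in the sedentary pair (2.33-fold, 2.00 to 2.72) and 204 and 425 CPM in the running pair (2.09-fold, 1.85 to 2.35). At baseline, 30 of the 45 were compared and 0 differed in runners, where 5.34% of all genes did.

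Of 17 further arterial identity genes, 14 were compared in each infarct comparison, with 2 higher in both, and 4 lower in sedentary and 5 in running hearts, beside the same 5.42 and 5.16% of all genes higher and 6.94 and 8.52% lower. Among the lower ones, Bmx, an arterial tyrosine kinase, had 334 and 143 CPM in the sedentary pair, 2.34-fold lower (1.94 to 2.85), and 264 and 73.3 CPM in the running pair, 3.60-fold lower (2.95 to 4.42). Tmem100, a target of ALK1 signalling in arteries, had 102 and 27.7 CPM in the sedentary pair, 3.69-fold lower (2.45 to 5.79). Klf2, the flow-responsive transcription factor, had 399 and 227 CPM there, 1.76-fold lower (1.51 to 2.06). Bmx was also among the leading genes of the larger endocardial-like cluster. All values of listed genes here are over all vascular nuclei, whose arterial share was lower in the infarct libraries. None was computed with the same cluster weights, and the part of make-up in them was not tested.

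Other genes of that list were higher. Unc5b, a netrin receptor of arteries and tip cells, was higher after infarction at 44.9 and 95.7 CPM in sedentary hearts (2.13-fold, 1.57 to 2.89) and at 43.6 and 116 CPM in runners (2.66-fold, 2.07 to 3.43). Igfbp3, a secreted binding protein for insulin-like growth factors, had 25.0 and 96.8 CPM (3.87-fold, 2.71 to 5.60) and 27.1 and 87.5 CPM (3.22-fold, 2.37 to 4.43). Of 6 venous identity genes, all compared, 2 were higher in the sedentary pair, 1 in the running pair and 0 lower in either, against 5.42 and 5.16% of all genes higher. Between the infarct libraries Bmx was 1.95-fold lower (1.51 to 2.51) in runners.

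The genes whose levels followed each member most closely were sought over 32 class-by-library sums of 8 classes, among 11925 genes, by Pearson's r of log2(CPM + 1). These sums share libraries and depth, so r is a description. Closest to Gja5 were Adgrg1 (r = 0.83), Tspan7 (0.83) and the Notch ligand Jag2 (0.82). Sox17 was followed by Ly6c1 (0.88), Mcf2l (0.88) and Aplnr (0.87), and Notch3 by Cspg4 (0.94), which is one of the pericyte markers. For Notch1 the nearest was Cbfa2t3 (0.94), for Notch4 Adgrl4 (0.91), for Dll4 Ldb2 (0.91), for Jag1 Tmod3 (0.94) and for Notch2 Mta3 (0.86). The nearest to Hey1 was Rasal2 (0.86) and to Hey2 Txnrd3 (0.84), both members with few UMIs.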

How the data were processed

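Nuclei were sorted by Hoechst staining from frozen ventricles and counted with the 10x Genomics 3' v3.1 chemistry, per the labels' protocols. The deposited matrices hold raw UMI counts per gene and barcode, made by the authors with Cell Ranger 7.1 on GRCm39, per the submitters' processing notes; strand and intron settings are not given in the sources used here. The totals were 32899707 (sedentary), 37533722 (running), 26170995 (sedentary infarct) and 29916572 (running infarct) UMIs.

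A barcode was kept from 300 genes upward, if mitochondrial genes gave no more than 20% of its UMIs. Scrublet's automatic cut marked 0 doublets in every library, so the highest-scoring barcodes were removed at 0.8% for every 1000 barcodes of a library: 228, 300, 82 and 192. Clustering used scanpy 1.11.5 and leidenalg 0.10.2 (3000 variable genes, 40 components, 15 neighbours, resolution 1.0) without the 10 genes and their related lists, 78 genes in all. Clusters were named from 160 markers of 19 cell types. Clusters with too few markers, leading genes of another type, low depth or a median doublet score of at least 0.1 stayed unnamed. Clusters led by another type's markers were clustered once more alone, which was decided after the clusters were seen.

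Counts were summed per class and library without mitochondrial genes. Ratios have exact conditional binomial 95% intervals and shares Clopper-Pearson intervals (scipy 1.17.1). A ratio divided by another ratio has an approximate interval. UMIs remove PCR copies, but intervals cover counting error only. A gene was compared from 100 UMIs over both libraries and counted as different at 1.5-fold; with 1 library per group no p-value was computed. Named besides the members were listed genes whose interval lay wholly beyond 1.5-fold, at most 3 per list and direction, those with the most UMIs, and genes among the 3 most alike to each member, of which one is not reported here. The ratio script was tested on simulated data. The members, lists and alternatives were chosen with earlier results of these data known.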

Additional observations from a re-analysis of the deposited data

Results flagged for a closer look

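Nuclei in clusters that could not be named, which enter no comparison by class, held Gja5 UMIs above the limit that a count of 0 allows. Their share of all Gja5 UMIs was 38.6% (34.5 to 42.9) in the sedentary library and 33.4% (29.4 to 37.6) in the running library. It was 63.3% (56.3 to 69.9) in the sedentary infarct library and 62.2% (56.1 to 68.0) in the running infarct library. The same clusters held 38.8, 38.9, 46.4 and 49.6% of the UMIs of all genes. Gja5 stood at 18.7, 15.0, 11.9 and 12.4 CPM in them, and Sox17 at 19.3, 15.5, 19.6 and 17.4 CPM. Several of these clusters had a median doublet score of at least 0.1 and a depth well above the library median, and the part of mixed nuclei in the shares was not tested.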

How the results depend on the processing

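No paired analysis was possible because each group is 1 library, and no replicate could be left out. Of 600 ratios of members in vascular endothelial-like nuclei under 15 alternatives, 535 kept within the main counting interval, 63 moved outside it and 2 of members past 1.5-fold crossed even. The moves were uneven: 20 of 40 ratios moved in Y-positive nuclei and 19 of 40 with at most 5% mitochondrial UMIs. Without the low-depth cluster 11 of 40 moved, and with the same cluster weights 8 of 40. Changes of denominator, cluster resolution and weight per nucleus kept all 40 each. The 2 that crossed even were Jag1 (1.25) and Sox17 (1.10) in infarcted over baseline runners with the same cluster weights. In sedentary hearts, where neither had passed 1.5-fold, Jag1 (0.768 to 1.59) and Sox17 (0.906 to 1.68) crossed even in the same way. Without the low-depth cluster the members past 1.5-fold in runners were again 3, with Notch4 and Dll4 in place of Jag1 and Sox17. With running over sedentary, where 0 members passed 1.5-fold, 1 did (Notch4) with nuclei of at most 5% mitochondrial UMIs and 1 (Notch4) in nuclei positive for Y-linked genes. For the sedentary infarct, with 1 member past 1.5-fold, there were 3 with each library clustered alone (Notch2, Jag1, Gja5), 2 in Y-positive nuclei (Notch1, Gja5), 2 with the same cluster weights (Jag1 and Sox17, higher) and 2 at a minimum of 20 UMIs (Hey2, Gja5). For the running infarct, with 3, there were 5 at most 5% mitochondrial UMIs, 0 with the same cluster weights, 5 at 20 UMIs and 1 (Gja5) at 2-fold. Between the infarct libraries, with 2, there was 1 (Sox17) with doublets kept, each library clustered alone, the low-depth cluster left out or the same cluster weights, there were 4 at 20 UMIs, and 0 in Y-positive nuclei and at 2-fold. The cause was not tested, except that 2-fold and 20 UMIs are other limits by construction. The 5% setting leaves 112 to 290 vascular nuclei a library. The Y-positive setting leaves 199, 228, 32 and 77, beside 485, 534, 320 and 662 Y-negative nuclei. Apart from these settings, the part of sex make-up or of Y detection in the infarct ratios was not tested. The Gja5 ratio ran from 0.231 to 0.984 in the sedentary and from 0.0929 to 0.961 in the running infarct comparison. With at most 5% mitochondrial UMIs the arterial share of vascular nuclei was 47.2, 70.5, 16.0 and 6.90%.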
